A study of Mus musculus with 2 samples.

Results

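The S100 proteins and annexins described here are 10 genes, 6 of the S100 family (S100a4, S100a6, S100a8, S100a9, S100a10 and S100a11) and 4 of the annexin family (Anxa1, Anxa2, Anxa3 and Anxa5). They were taken by symbol, as the genes named alone by a probe set in the platform annotation, out of 19938 genes named in that way. All 10 were found, with 11 probe sets between them, 2 of which belong to S100a11. Expression was measured in carcinoma tissue of mice treated with DEN (diethylnitrosamine, a chemical that damages DNA in the liver and gives rise to hepatocellular carcinoma). The wild-type (WT) group is 1 array of 1 tumour sample. The other group, labelled HLF-deficient, is likewise 1 array; HLF, or hepatic leukemia factor, is a transcription factor of the PAR bZIP family that is abundant in liver. Both groups had received DEN, and both samples were tumour, so the arrays hold no untreated or normal liver. The labels do not give the strain, age, dose, time after treatment, the nature of the Hlf mutation, or whether a sample was pooled.

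S100 proteins are small calcium sensors with EF-hand motifs that usually act as dimers: inside the cell they bind target proteins of the cytoskeleton and membrane, and some are released and engage receptors such as RAGE and TLR4. Annexins bind acidic membrane phospholipids in a calcium-dependent manner and organise membrane domains, vesicle traffic and repair. The families meet in shared complexes, in which an S100 dimer joins a pair of annexin molecules, as S100a10 does with Anxa2 and S100a11 with Anxa1. In liver both families are known mainly from bile duct, stromal, endothelial and immune cells, and several members are known to be raised in liver tumours.

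Levels below are log2 RMA values, given first for the WT and then for the HLF-deficient tumour, and every difference is the second minus the first, also in log2. With 1 array per genotype no SD or p-value can be given for any of them, and none can be set against the spread from tumour to tumour. A fixed rule of size, a difference of at least 1 (2-fold), was used in place of a test. As a guide to probe noise alone, the difference of a single probe set had an SD of 0.24, estimated from 739 genes read by more than 1 detected probe set. A level of 2.98, which 95% of the readings of chemoreceptor probe sets did not exceed, served as the floor of expression, and 14574 genes lay at or above it on at least 1 array and were compared. All 10 members lay above it on both arrays. In bulk tissue, fewer cells of a type and less RNA per cell cannot be told apart. Hlf, the targeted gene, had levels of 5.13 and 3.79, a difference of -1.34. Both levels lay above the floor, so the Hlf signal was lower but not absent in the tumour labelled HLF-deficient. The hepatocyte identity of the tissue was checked with 10 measured markers, which lay at a mean of 11.5 and 11.6, and their median difference was 0.03, or 0.16 with the arrays centred.

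The start-site regions of Anxa2 and S100a11 are shown because these were the annexin and the S100 gene among the members with the highest differences between the tumours, and because each held a match to the AP-1 motif TGANTCA; they were picked after these values were seen. Each sequence is the 250 bases before the RefSeq start site in GRCm38.p6, 5′ to 3′, with the motif in capitals; the Anxa2 region is chr9:69453433-69453682 and the S100a11 region chr3:93520246-93520495, both on the plus strand.
Anxa2: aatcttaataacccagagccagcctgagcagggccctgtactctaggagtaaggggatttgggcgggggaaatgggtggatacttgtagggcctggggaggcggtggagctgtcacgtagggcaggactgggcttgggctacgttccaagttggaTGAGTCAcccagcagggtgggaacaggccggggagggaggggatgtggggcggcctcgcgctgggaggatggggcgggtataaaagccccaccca
S100a11: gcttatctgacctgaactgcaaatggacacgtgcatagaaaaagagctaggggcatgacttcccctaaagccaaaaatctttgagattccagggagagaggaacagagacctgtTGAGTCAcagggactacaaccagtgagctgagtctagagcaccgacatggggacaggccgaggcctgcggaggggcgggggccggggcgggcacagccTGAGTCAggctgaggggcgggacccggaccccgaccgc
Anxa2 held 1 match, whose first base lies at position -95 from the start site, and S100a11 held 2, at -136 and -38. RefSeq windows of 300 bases (250 before and 50 after the start) were available for 8 of the 10 members, and these were the 2 that held the motif; S100a10 and Anxa3 had no window. Of all 32851 windows, 7.81% held it on either strand. Among the 24 S100 and annexin genes with a window, 5 held it, the others being S100a7l2, S100a16 and Anxa10. S100a16 differed by -0.14, Anxa10 lay below the floor on both arrays, and S100a7l2 was not measured. The shares over all windows are per window, whereas the members and their families are counted per gene. The PAR bZIP motif TTANGTAA was in 0 of the 8 members' windows and in 2.32% of all windows, and the cyclic AMP response element TGACGTCA in 0 of 8 and in 1.79%. The motifs were searched on both strands, and matches are letters in a window and not sites shown to be bound. Across the compared genes with a window, the median difference was 0.06 for 778 genes with the AP-1 letters and 0.09 for 10742 genes without them.

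Anxa2 was the only member beyond 2-fold. An increase of that size was seen in 1.5% of the 14574 genes and a decrease in 0.364%; among the members the counts were 1 of 10 and 0 of 10. All 4 annexins had positive differences, from 0.17 to 1.13 with a median of 0.41. Of the 6 S100 genes, 4 had negative differences, and the S100 median was -0.23. Beside these counts, 58.2% of all compared genes were above 0 as deposited. The S100 median shrank to -0.11 with the arrays centred and to -0.15 after quantile normalization or loess, while the annexin median was 0.54, 0.34 and 0.35 in that order. Each of the 10 signs held when the arrays were centred, quantile normalized or freed of a loess trend. The share of all compared genes above 0 moved, being 70.7% with centring. Quantile normalization gave a share of 52.9% and the loess correction 54.4%. The median over all members was 0.13, beside 0.07 over all compared genes; with the arrays centred these were 0.26 and 0.20. Set against probe noise, 4 members (S100a6, S100a10, Anxa1 and Anxa5) differed by less than 1 SD as deposited, 3 (S100a4, S100a8 and S100a11) by 1 to 2 SD, and 3 (S100a9, Anxa2 and Anxa3) by more. These bands moved with the scaling: S100a4 and S100a8 lay within 1 SD under each of the 3 others, S100a10 lay outside it at -0.33 and -0.35 after quantile normalization and loess, and Anxa1 and Anxa5 lay outside it at 0.34 and 0.29 with the arrays centred. With the arrays centred, S100a9 fell inside 2 SD at -0.40 and S100a11 went beyond 2 SD at 0.55. S100a6 lay at the edge of 1 SD, at 0.24, after quantile normalization or loess. Anxa2 and Anxa3 stayed beyond 2 SD under each scaling.

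**Figure D1:**
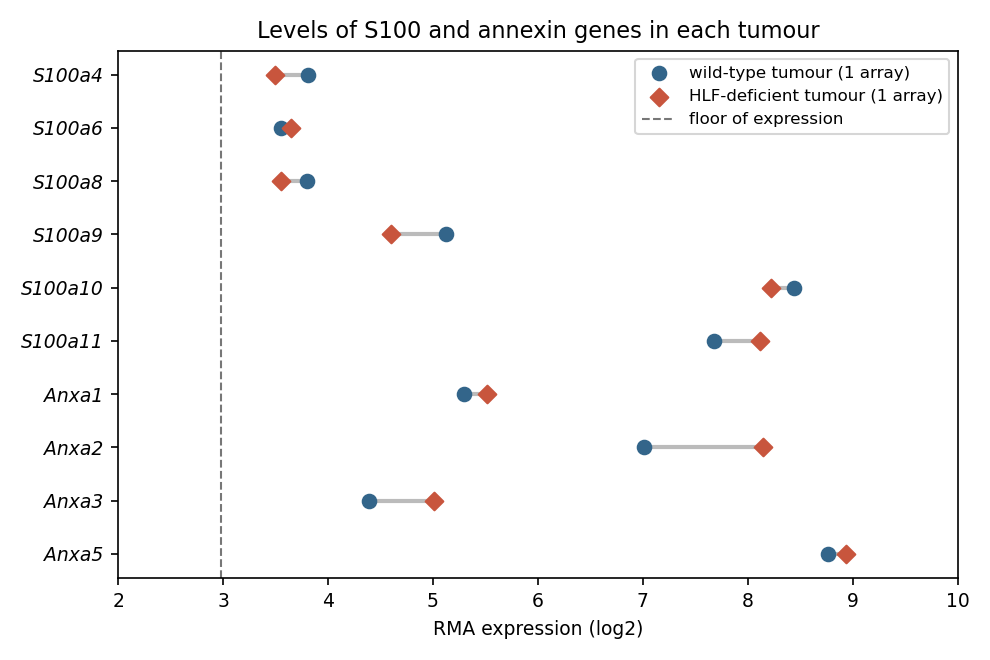
RMA expression (log2, horizontal axis) of each of the 10 members in the wild-type tumour (circles) and the HLF-deficient tumour (diamonds), 1 array each and hence without error bars; the dashed line is the floor of 2.98. Anxa2 has the widest gap, from 7.02 to 8.14, and levels are to be compared within a gene, not between genes.

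Anxa2, which links membranes to actin and serves at the cell surface as a docking protein for plasminogen and its activator, had levels of 7.02 (WT) and 8.14 (HLF-deficient). It was therefore 2.18-fold higher in the latter, the 147th highest of the 14574 differences. Quantile normalization and the loess correction each brought it to 0.97, just inside 2-fold, and centring raised it to 1.25. S100a10, its dimeric partner, which has lost the ability to bind calcium and holds Anxa2 in a tetramer, did not go with it. Its levels were 8.44 and 8.22, a difference of -0.22. Anxa2 thus exceeded S100a10 in its difference by 1.35 as deposited and by 1.31 to 1.35 under the other scalings.

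Anxa3, an annexin of neutrophils and of progenitor-like and tumour epithelium, had levels of 4.39 and 5.01, a difference of 0.61 or 1.53-fold, and ranked 836th from the top. It and Anxa2 were the 2 members higher by at least 1.5-fold, which 6.37% of all compared genes were. Anxa1, a glucocorticoid-induced annexin that acts on formyl peptide receptors and restrains neutrophil entry, had levels of 5.29 and 5.51, a difference of 0.22. Anxa5, which binds phosphatidylserine exposed on dying cells, was nearly level, at 8.77 and 8.94. As deposited, both of these differences were smaller than the SD between probe sets.

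S100a11, a dimer that binds the amino-terminal tail of Anxa1, had levels of 7.68 and 8.11. Its difference of 0.43 was the highest of the 6 S100 members, and its second probe set gave 7.54 and 8.0, a difference of 0.47. The RefSeq table also lists an S100a11 pseudogene, whose transcripts, if any, a probe set could share. The difference fell to 0.29 after quantile normalization or the loess correction. Anxa1 lay 0.22 below S100a11 in its difference, within the SD between probe sets.

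S100a8 and S100a9 form calprotectin, a heterodimer stored in neutrophils and monocytes that binds zinc and calcium and signals through TLR4 and RAGE. S100a9 had levels of 5.12 and 4.60, and its difference of -0.52 was the lowest among the members. It ranked 677th from the bottom, and it did not reach the 1.5-fold decrease that 3.12% of compared genes showed. S100a8 had levels of 3.80 and 3.55, a difference of -0.25. The subunits thus had the same sign, and S100a9 stayed between -0.57 and -0.40 under the other scalings. S100a8 lay between -0.13 and -0.11 under them, inside the probe set SD of 0.24. Its levels were less than 1 log2 unit above the floor.

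S100a4, which binds non-muscle myosin and is known from fibroblasts, macrophages and invasive tumour cells, had levels of 3.81 and 3.50, a difference of -0.32. S100a6, or calcyclin, a calcium sensor of fibroblasts and epithelia, had levels of 3.55 and 3.65, a difference of 0.10. Both genes lay less than 1 log2 unit above the floor, where RMA compresses differences. The myosin heavy chain Myh9, a target of S100a4, had a difference of 0.24, and Cacybp, the calcyclin binding protein, one of 0.72.

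**Figure D2:**
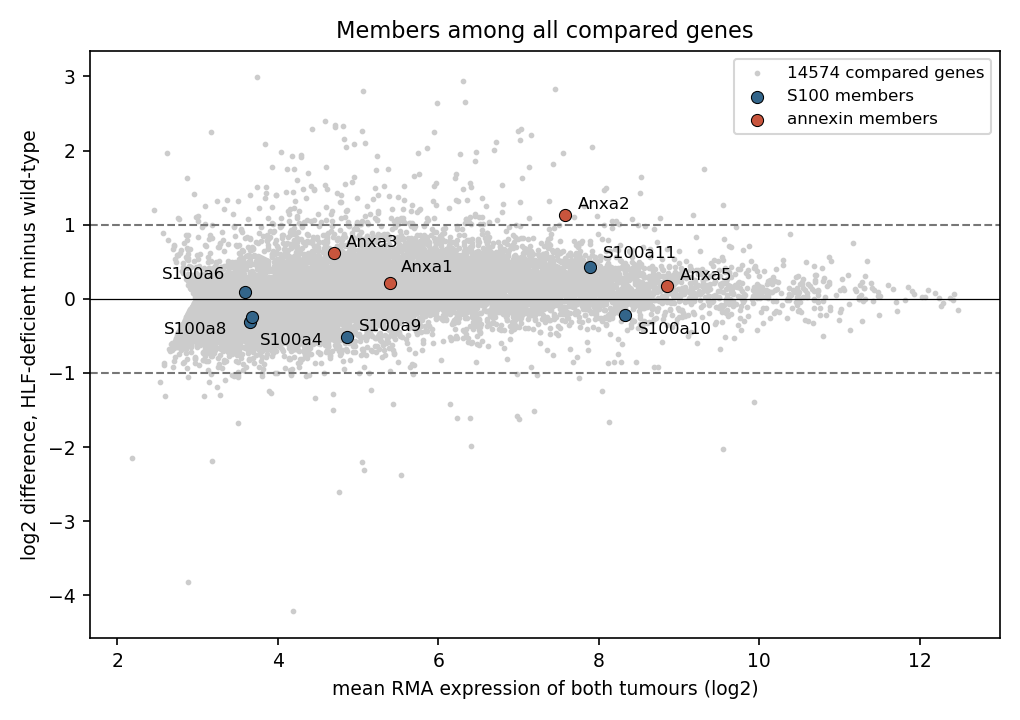
Log2 difference (HLF-deficient minus wild-type, vertical axis) against the mean RMA expression of both tumours (log2, horizontal axis) for the 14574 compared genes in grey, with S100 members in blue and annexin members in red; dashed lines mark 2-fold. Anxa2 is the 1 member past the upper line, and S100a9 is the lowest at -0.52.

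The other genes of these families were read in the same way. Of the 8 other annexins, 7 were compared, 1 passed 2-fold upwards and 0 downwards, beside 1.5% and 0.364% of all compared genes. The 1 that passed was Anxa13, an annexin of intestinal and renal epithelium, with levels of 3.49 and 4.58, a difference of 1.09 or 2.12-fold. Its WT level lay less than 1 log2 unit above the floor of 2.98. Anxa11 differed by 0.44, Anxa4 by 0.29, Anxa6 by 0.21, Anxa7 by 0.17 and Anxa9 by 0.09. Anxa8 had the only negative value of the compared annexins as deposited, -0.17, and Anxa10 lay below the floor on both arrays. Over the whole family, 10 of 11 compared annexins were above 0, against 58.2% of all compared genes. The count was 9 of 11 after quantile normalization or the loess correction, where Anxa7 turned to -0.02 and -0.0026.

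Of the 11 other S100 genes measured, 8 were compared. S100g, or calbindin-D9k, a vitamin D-responsive calcium carrier of intestine, uterus and kidney, had levels of 3.38 and 4.82, the first less than 1 log2 unit above the floor. It was 2.71-fold higher, the highest difference among all S100 and annexin genes measured, and it stayed beyond 2-fold under all 3 other scalings (1.49 to 1.56). S100a1, a calcium sensor best known from muscle, differed by -0.32, S100a7a by -0.29 and S100a16 by -0.14, while S100a13 and S100b were level at 0.01 and 0.00. S100a14 and S100a2 measured -0.66 and -0.50, but both were under the floor on the HLF-deficient array, so that the floor bounds them only at 1.04-fold and 1.26-fold lower. S100a3, S100a5 and S100z lay below the floor on both arrays. Over the whole family 5 of 14 compared S100 genes were above 0, or 4 of 14 after quantile normalization or the loess correction, where S100a13 turned to -0.10 and -0.09.

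**Figure D3:**
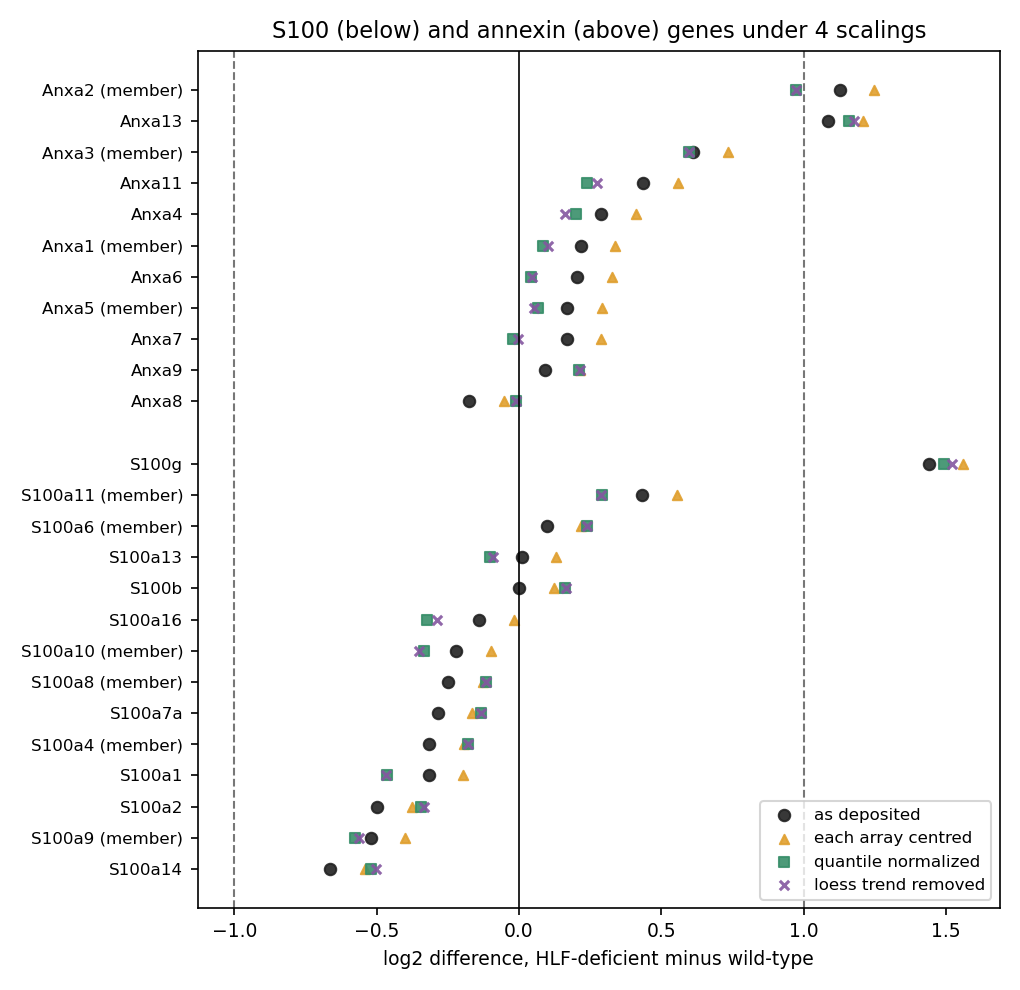
Log2 difference (HLF-deficient minus wild-type, horizontal axis) of each compared S100 gene (lower block) and annexin gene (upper block) with the values as deposited and under 3 other scalings; dashed lines mark 2-fold. Anxa2 lies at 1.13 as deposited and at 0.97 after quantile normalization or loess, while S100g stays beyond 2-fold under each scaling.

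Most S100 genes lie side by side on a single chromosome. In the gene order of GRCm38.p6, S100a1 to S100a9 form an unbroken run of 12 protein-coding genes, all of the S100 family, which holds 4 of the members (S100a4, S100a6, S100a8 and S100a9). Of the 10 genes compared in this run, 0 were beyond 2-fold. Among all compared genes the shares beyond it were 1.5% higher and 0.364% lower. The differences in the run went from -0.66, that of S100a14, to 0.10. S100a14 and S100a2 (-0.50) were under the floor on the HLF-deficient array, with bounds of 1.04-fold and 1.26-fold lower. The median of the run was -0.30, beside 0.07 over all compared genes. Centring gave -0.18, quantile normalization -0.25 and the loess correction -0.23. S100a11 and S100a10 lie farther along the chromosome, beyond a stretch of 56 protein-coding genes, mostly of epidermal differentiation, of which 13 were compared and 0 were beyond 2-fold. The same shares of all compared genes stand beside this count. The median of that stretch was -0.18 as deposited, -0.06 centred or quantile normalized and -0.05 after loess. S100g and S100b are on other chromosomes.

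Among the receptors of these proteins, 7 of 10 listed genes were measured and 6 had positive differences, beside 58.2% of all compared genes. Cd14, the co-receptor that feeds TLR4, had levels of 5.53 and 7.38 and was 3.62-fold higher. Cd36, a scavenger receptor that binds the S100a8 and S100a9 complex with fatty acids, was 2.22-fold higher, and Ly96, the TLR4 partner MD-2, lay just inside 2-fold at 0.99, or beyond it at 1.11 with the arrays centred. After quantile normalization or the loess correction Cd14 alone stayed beyond 2-fold, Cd36 being at 0.95 and 0.98. Tlr4 itself was under the floor in the WT tumour and reached 3.24, at least 1.20-fold higher. Ager, which encodes RAGE, differed by -0.23 and Alcam, an adhesion molecule, by 0.20.

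Of 18 listed partners and plasminogen system genes, 17 were measured, 4 were higher by 2-fold and 0 were lower. Among all compared genes these shares were 1.5% and 0.364%. The plasminogen activator urokinase, Plau, was under the floor at 2.84 in the WT tumour and 4.16 in the other, at least 2.27-fold higher. Its receptor Plaur differed by 0.40, Plat, the activator that docks on the Anxa2 complex, by 0.48, and Plg, plasminogen itself, by 0.10. Vim, which encodes the filament protein vimentin of stromal cells, was 4.13-fold higher and Lgals3, a galactose-binding lectin of macrophages and bile duct cells, 2.57-fold. Tmsb10, an actin-binding peptide gene, was higher by 2.17-fold as deposited and inside 2-fold at 0.91 and 0.95 after quantile normalization and loess. The lowest values were those of the membrane linker Ezr, -0.20, and the plasminogen receptor Plgrkt, -0.02, and Ahnak, a scaffold that binds S100a10, differed by 0.20. The list's median was 0.40; it was chosen with earlier results of these data known.

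Cell type markers differed in direction beside the members, and several list medians changed with the scaling. Of 15 neutrophil markers measured, 10 were compared, 8 of these had negative values as deposited, and the median was -0.22. Under each of the other scalings 6 of 10 were negative, and the median was -0.09 centred and -0.12 after quantile normalization or loess. Ngp, a granule protein, measured -1.31, but its second level was under the floor, which bounds it at 1.21-fold lower, and Mpo measured -0.56 (bound 1.39-fold). The mean level over the list was 3.63 and 3.52, with the defining gene Ly6g below the floor in both. The highest values were those of Lcn2, 0.75, which hepatocytes also secrete, and Retnlg, 0.23. The part of neutrophils in the S100a8 and S100a9 values was not tested.

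Of 13 measured monocyte and macrophage markers, 11 were compared, all with positive values as deposited and a median of 0.54. After quantile normalization or loess 10 of 11 were positive, and Mrc1 turned negative. Among all compared genes 58.2% were above 0 as deposited, 52.9% after quantile normalization and 54.4% after loess. The mean level of the 13 markers was 4.25 and 4.77. Cd68, a lysosomal protein of macrophages, was 2.88-fold higher, and Gpnmb at least 1.63-fold higher; the lowest values were those of Mrc1, 0.02, and Cx3cr1, 0.21. The 6 Kupffer cell markers had a median of -0.24 (-0.12 centred, -0.31 quantile normalized, -0.29 with the loess correction) and mean levels of 5.53 and 5.34. Clec4f and Vsig4 were at -0.37 and -0.36, and Marco and Timd4 at 0.12 and 0.01. Over 10 endothelial markers the median was 0.40 and the mean levels 5.96 and 6.34, with Lyve1 2.31-fold higher, Emcn at 0.98, Clec4g at -0.76 and Tek at -0.13. Quantile normalization and loess lowered the endothelial median to 0.20 and 0.23, and with the arrays centred Emcn (1.10) and Cdh5 (1.08) were also beyond 2-fold.

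The 13 fibroblast and stellate markers had a median of 0.24 (0.36 centred, 0.12 quantile normalized, 0.16 with the loess correction) and mean levels of 5.30 and 5.63. Of these markers 0 were beyond 2-fold, beside 1.5% of all compared genes higher and 0.364% lower. Postn and Col1a2 were highest at 0.87 and 0.76 and Thy1 and Lrat lowest at -0.17 and -0.13. Of 11 bile duct and progenitor markers measured, 9 were compared, with a median of 0.13 and mean levels of 4.64 and 4.86. The median was 0.25 centred, 0.12 quantile normalized and 0.096 with the loess correction. Cd24a, a surface glycoprotein of progenitors, was 2.92-fold higher, and Prom1 2.02-fold, inside 2-fold at 0.87 and 0.89 after quantile normalization and loess. The duct keratins Krt19 and Krt7 were at -0.17 and -0.10, and Cldn4 was lowest at -0.21. Lymphocyte markers had a median of -0.13 over 8 compared genes as deposited, but -0.0052 centred, -0.03 after quantile normalization and -0.02 after loess, with mean levels of 3.25 and 3.11, Cd4 and Jchain highest at 0.12 each and Cd3e and Cd79b lowest at -0.43 and -0.32. The platelet median over 5 genes was -0.15 as deposited and -0.03 centred, and it turned to 0.0080 and 0.0079 after quantile normalization and loess, with mean levels of 3.97 and 4.0, Ppbp and Pf4 at 0.38 and 0.29, and Itga2b and Treml1 at -0.17 each. In the hepatocyte list, Cyp2e1 and Tat were highest at 0.51 and 0.32, and Alb and Apoc3 lowest at -0.15 and -0.06. The part of any of these cell types in the values of Anxa2, Anxa3 or the S100 genes was not tested.

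**Figure D4:**
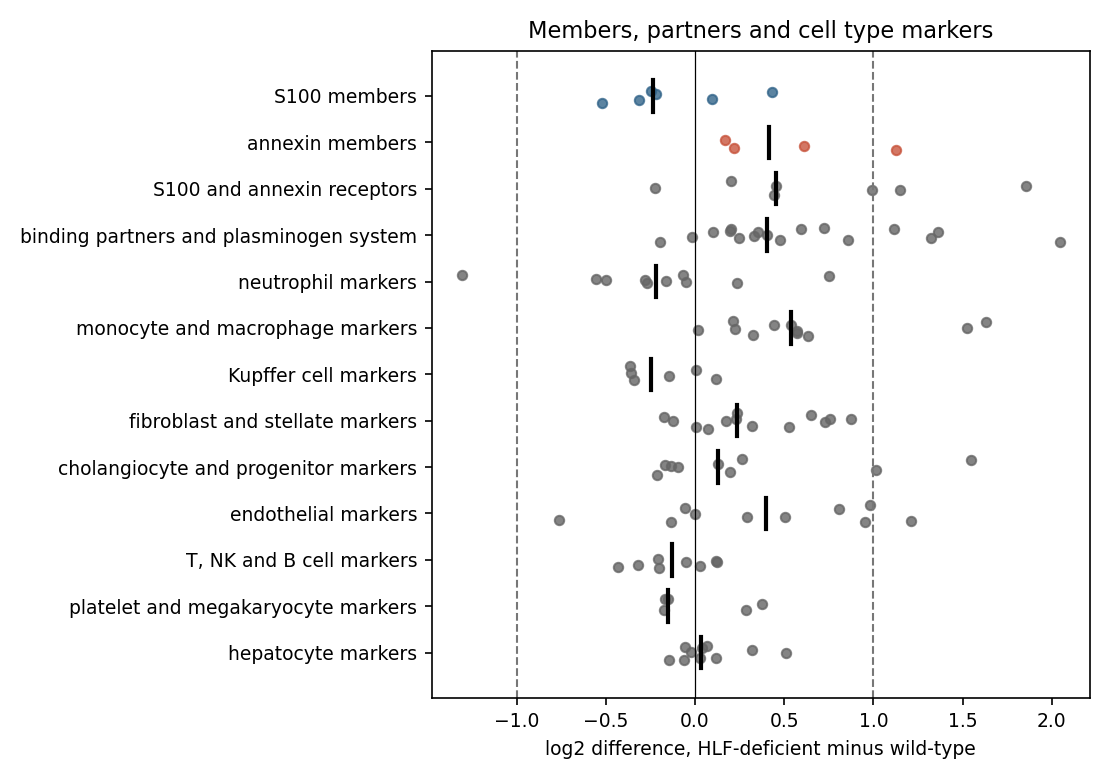
Log2 differences (HLF-deficient minus wild-type, horizontal axis) of the compared genes of each list, 1 point per gene with the vertical scatter added for legibility only, and a bar at each list's median; dashed lines mark 2-fold. The S100 members have a median of -0.23 and the annexin members 0.41. Medians of the other lists run from -0.24 for Kupffer cell markers to 0.54 for monocyte and macrophage markers, all as deposited.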

How the data were processed

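Total RNA of 2 tumour samples, 1 per genotype, was labelled with biotin and hybridised to Affymetrix whole-transcript arrays, per the labels' protocols. The deposited log2 values of 35556 probe sets were made by the authors with RMA in Affymetrix Expression Console, per the submitters' processing notes. The sources used here do not give the version, the arrays normalized together or the genome build. The log2 scale was read from the values (0.25 to 12.7). RMA compresses differences near background.

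The platform annotation named exactly 1 gene for 21789 probe sets, and for a gene with several probe sets the one with the highest mean was used. All 10 members were found by gene identifier in RefSeq (GRCm38.p6), from which promoter sequences were also taken. The floor was the 95th percentile of 1261 olfactory, vomeronasal, taste and trace amine receptor probe sets. A gene below it on 1 array has only a bound there, given as "at least" or "bound". With 1 array per genotype no test was possible, and precision is limited by that number. The members, lists, motifs and rules were chosen with earlier results of these data known. Named genes are the members, Hlf, the other S100 and annexin genes, and the 2 highest and 2 lowest compared genes of each other list; Ly96, Tlr4, Plau, Tmsb10, Plaur, Plat, Plg, Myh9, Cacybp, Ahnak, Ly6g, Cdh5 and Krt7 were added outside this rule. Alternatives were centring, quantile normalization, loess (span 0.4), the mean of probe sets, other floors and other fold rules. Computations used Python 3.11.15, numpy 2.4.6, pandas 2.3.3 and statsmodels 0.14.6. The scalings and the 2-fold rule were tried on simulated data, with shifts larger than any member's difference and noise below the probe set SD. The floor, the bounds and the choice among probe sets were not tried in this way.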

Additional observations from a re-analysis of the deposited data

How the results depend on the processing

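The count of members higher by at least 2-fold was 1 (Anxa2) as deposited and 0 after quantile normalization or removal of the loess trend, where Anxa2 was at 0.97; it was 2 under a rule of 1.5-fold and 0 under a rule of 4-fold. No member was lower by 2-fold under any of these settings. The 50 alternative values of the members' differences (5 settings for each of 10 genes) held 0 changes of sign, and each stayed within the probe set SD of 0.24 of its main value. Part of this was fixed in advance. Setting values below the floor to it could not move any member, and the mean of probe sets could move only S100a11. Centring shifts every gene by the same amount, which is smaller than that SD. Centring moved the median of all compared genes from 0.07 to 0.20. With the floor at the 99th percentile, 3.78, 9 of the 10 members were compared, without S100a6. The median over the members was 0.13 as deposited, 0.26 centred, 0.076 quantile normalized and 0.078 with the loess correction, and with the floor at the 99th percentile it was 0.17. Probe sets naming several genes could not be tried, since 0 of them named a member. No paired analysis was possible because each genotype has 1 array, and no array could be left out. The scalings of the family and partner counts were added after the data were seen. What limits all values is 1 array per genotype and, for S100a4, S100a6 and S100a8, a level close to the floor.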
